A study of Mus musculus with 11 samples.

Results

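Krüppel-like factor genes were followed in cultured fetal lung mesenchymal cells with and without the transcription factor Sp3. These 10 genes, Klf2, Klf3, Klf4, Klf5, Klf6, Klf7, Klf9, Klf10, Klf13 and Klf15, were taken by symbol from the 24062 genes listed in each count file, and all 10 had enough reads to be tested. The RNA-seq data comprised 11 libraries of primary mesenchymal cells from embryonic day 15 mouse lungs, 4 from WT, 4 from Sp3+/- and 3 from Sp3-/- embryos. Per the study's methods, the embryos came from matings of Sp3+/- mice. The cells were selected by rapid attachment to culture plastic and were passaged before use, so each library represents cells grown in culture. No treatment distinguished the groups. The labels do not state whether each library came from a separate embryo, and p-values then measure only the spread between these libraries, which may be technical.

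Krüppel-like factors are transcription factors with 3 zinc fingers at the carboxyl end, closely related to those of the Sp proteins, and both families recognize GC-rich promoter sequences such as GC boxes and CACCC boxes. The amino-terminal parts differ and sort the family by the partners they recruit. Klf3, Klf8 and Klf12 bind the corepressor CtBP, Klf9, Klf10, Klf11, Klf13 and others bind the corepressor Sin3A, and Klf2, Klf4, Klf5, Klf6 and Klf7 act mostly as activators. Sp3 and the Krüppel-like factors can therefore meet at the same promoters, and promoters of several family members are themselves rich in GC boxes. Fibroblasts and other mesenchymal cells express many of these factors at once, several of them as early responders to serum and growth factors.

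The promoter letters of 4 members are shown because GC box letters lie in 3 of them, including Klf2, the member that passed a test, and are missing from the other, Klf9. Each line is the RefSeq window of GRCm38.p6 (mm10, the build of the count files) from 250 bases before to 50 bases after an annotated start, 5′ to 3′ on the gene's strand, and capitals mark the GC box GGGCGG or its reverse complement.
Klf2 (chr8:72318812-72319111, + strand): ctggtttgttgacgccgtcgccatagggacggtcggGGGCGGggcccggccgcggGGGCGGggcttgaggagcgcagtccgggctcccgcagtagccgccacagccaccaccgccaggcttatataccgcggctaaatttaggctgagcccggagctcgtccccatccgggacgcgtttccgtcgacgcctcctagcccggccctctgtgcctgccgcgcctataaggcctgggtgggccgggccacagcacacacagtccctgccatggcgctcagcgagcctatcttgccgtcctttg
Klf3 (chr5:64803271-64803570, + strand): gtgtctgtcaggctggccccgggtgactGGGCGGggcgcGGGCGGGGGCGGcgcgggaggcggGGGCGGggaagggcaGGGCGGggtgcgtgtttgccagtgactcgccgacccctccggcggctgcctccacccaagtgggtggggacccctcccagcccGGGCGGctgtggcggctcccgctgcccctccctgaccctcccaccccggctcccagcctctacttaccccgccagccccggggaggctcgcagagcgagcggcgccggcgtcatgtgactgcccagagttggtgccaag
Klf4 (chr4:55532426-55532725, - strand): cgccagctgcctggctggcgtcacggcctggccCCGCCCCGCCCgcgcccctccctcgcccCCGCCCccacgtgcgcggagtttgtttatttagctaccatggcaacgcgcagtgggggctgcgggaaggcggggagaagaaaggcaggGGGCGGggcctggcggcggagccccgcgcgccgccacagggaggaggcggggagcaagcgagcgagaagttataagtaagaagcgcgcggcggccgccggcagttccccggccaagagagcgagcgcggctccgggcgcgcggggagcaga
Klf9 (chr19:23140976-23141275, + strand): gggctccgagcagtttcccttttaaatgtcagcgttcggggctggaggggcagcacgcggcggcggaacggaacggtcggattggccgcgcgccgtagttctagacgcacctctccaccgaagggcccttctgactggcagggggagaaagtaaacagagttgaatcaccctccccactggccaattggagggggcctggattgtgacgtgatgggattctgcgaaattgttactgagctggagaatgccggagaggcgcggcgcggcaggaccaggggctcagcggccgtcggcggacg
The Klf2 window held 2 GC boxes and the Klf4 window 4. The Klf3 window held 6, the most among the members. No GC box letters lay in the Klf9 window. This says only that these letters were not in those 300 bases.

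Of the 10 members, 8 had an entry in the RefSeq promoter table, and Klf5 and Klf10 had none. A GC box was found on either strand in 7 of these 8, whereas 35.7% of all 32851 windows in the table held one. The longer form GGGGCGGGG, which always contains a GC box, was in 5 of 8, against 11.4% of all windows. The CACCC box was in 6 of 8, against 57.5% of all windows. The windows of Klf13, with 3 GC boxes, and of Klf6, Klf7 and Klf15, with 1 each, complete the set. GC content ranged from 58.3% in the Klf7 window to 76.7% in the Klf3 window, and windows rich in G and C hold these letters more often. A match is a description of the sequence and no binding was measured.

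**Figure D1:**
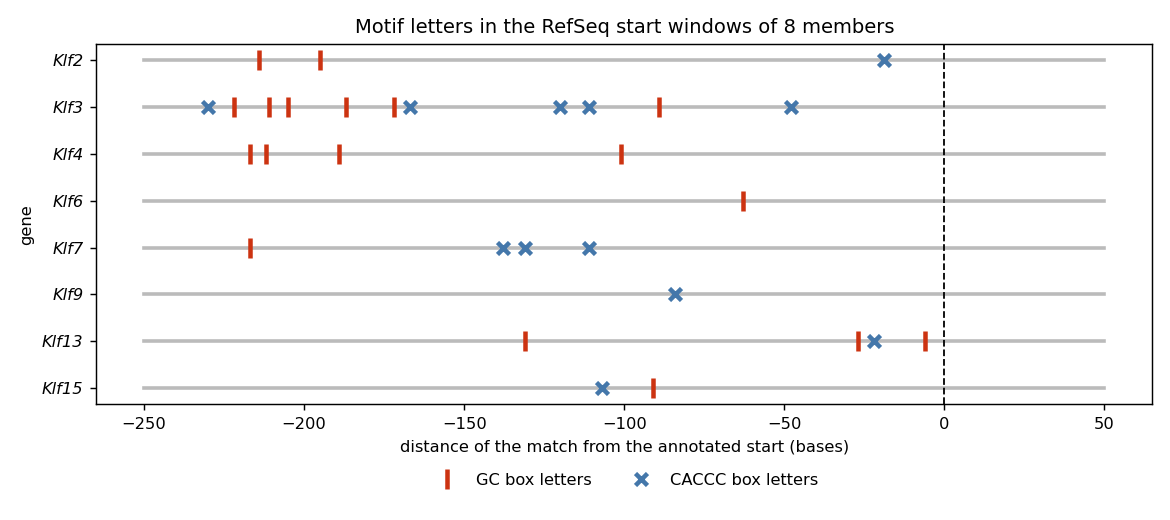
Positions of GC box letters (GGGCGG, red bars) and CACCC box letters (blue crosses) on either strand in the RefSeq start windows of the 8 members with an entry. The x axis is the distance in bases from the annotated start, and the Klf3 window holds 6 GC boxes while the Klf9 window holds none.

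Between 9849111 and 59297495 reads per library were counted on genes, with a median of 34968482. Sp3 itself set the Sp3-/- libraries apart. It had 3.86 to 4.24 log2 CPM (counts of a gene scaled to a common library total, on the log2 scale) in Sp3-/- libraries. The range was 5.92 to 6.75 in WT and 5.70 to 6.16 in Sp3+/- libraries. These ranges overlapped, so Sp3 did not check the WT labels against the Sp3+/- labels. All 10 lung mesenchyme markers were above 1 CPM in all 11 libraries. Markers of other cells were also present. The 9 macrophage markers found in the files, none at 0 in any library, summed to 564 to 2920 CPM in WT, 339 to 2800 in Sp3+/- and 2840 to 10600 in Sp3-/- libraries. Of the 8 epithelial markers, 5 were at 0 in at least 1 library (Epcam, Cdh1, Nkx2-1, Sftpc and Cldn6). Their sum was 15.1 to 34.8 CPM in WT, 21.9 to 31.6 in Sp3+/- and 46.8 to 154 in Sp3-/- libraries. By fitted change in Sp3-/- against WT, 4 of the 7 tested were higher and 3 (Nkx2-1, Sftpc and Sox2) lower. Of the 10 endothelial markers, Cdh5, Tie1 and Cldn5 were at 0 in at least 1 library. Their sum was 41.3 to 123 CPM in WT, 52.2 to 94.7 in Sp3+/- and 120 to 147 in Sp3-/- libraries. By the same measure 6 of the 9 tested were higher and 3 (Cdh5, Kdr and Emcn) lower. The 6 mesothelial markers found in the files, none at 0 in any library, summed to 697 to 1660 CPM in WT, 1370 to 2420 in Sp3+/- and 2030 to 5660 in Sp3-/- libraries. A number after the last dash of some library titles (2 or 3, called the suffix here) has no explanation in the labels. All 3 Sp3-/- libraries have none, as do only WT library 468-4 and Sp3+/- library 697-4, and these 2 had the highest macrophage sums of their groups. Genotype and suffix can hardly be told apart, so changes are also given with the suffix added to a model of the 11 libraries.

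In WT cells the members spanned a wide range of abundance once counts were divided by the length of their exons. Klf6, an immediate early activator, was the most abundant, with 43.5±7.08 CPM per kilobase (mean±s.d., n=4 libraries). Klf4, a pluripotency and differentiation factor, followed with 23.5±4.02 CPM per kilobase. Klf13 had 9.36±0.779 CPM per kilobase, and the libraries of these 3 genes did not overlap one another. Klf9, at 6.60±1.30 CPM per kilobase, lay just below Klf13, with a highest library of 8.52 against a lowest of 8.54 for Klf13. Klf10 (4.99±1.39) and Klf3 (4.92±0.636) overlapped each other, and Klf10 overlapped Klf9. Klf2 had 2.61±0.132 CPM per kilobase, with libraries apart from those of Klf3 above and of the genes below. Klf15 (1.29±0.239), Klf7 (1.22±0.332) and Klf5 (1.12±0.352) were lowest and could not be ordered. The exon union of Klf3 is long (14998 bases), and with its longest transcript (8240 bases) Klf3 moved up the order to 8.95 CPM per kilobase, above Klf9 (6.88).

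None of the 10 members passed the test in Sp3-/- against WT cells by edgeR, at an adjusted p below 0.05, whereas 18.5% of all 14025 genes tested did (8.76% higher and 9.77% lower). The fitted log2 fold changes were positive for 6 and negative for 4, with a median of 0.22 beside 0 over all genes. At an unadjusted p below 0.05 there were 2, Klf2 and Klf9, against 37.6% of all genes. Klf2 was called by DESeq2, beside 4297 of 13992 genes, and by limma-voom, beside 2493 of 14025, with 1 member called by each. With the suffix as a covariate 0 of 10 were called by edgeR (9.41% of all 14130 genes) and 2 had an unadjusted p below 0.05. In simulated data of this comparison, 100 of 13750 genes were changed 2-fold and 100 were changed 4-fold. There edgeR recovered 56% and 96% of them, so smaller changes could be missed. The simulation changed a smaller share of genes than was called in the data and took them from better expressed genes. Its rates may therefore differ from those for the members. These are bulk libraries, in which fewer cells of a type and less RNA per cell cannot be told apart.

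Among the activators, Klf2, which is known for its role in endothelial quiescence and in restraining inflammatory genes, stood apart by genotype in every library. In WT libraries Klf2 had 2.45 (468-4), 2.52 (685-2), 2.59 (697-1) and 2.43 (697-3) log2 CPM. In Sp3+/- libraries it had 2.22 (468-3), 2.16 (685-5), 2.26 (685-7) and 2.15 (697-4). In Sp3-/- libraries it had 3.04 (685-1), 3.23 (697-2) and 2.72 (697-5). The 3 groups did not overlap, with Sp3+/- lowest, WT between and Sp3-/- highest. The order thus did not follow the number of Sp3 alleles that the labels give. These levels rested on 65 to 412 reads per library.

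Klf2 was higher in Sp3-/- than in Sp3+/- cells by 0.82 log2 (1.77-fold, standard error 0.14, 95% interval 0.51 to 1.13, edgeR adjusted p=0.00479). It was the 1 member of 10 that passed the test, where 25.5% of all genes did (13% higher and 12.5% lower). With the title suffix as a covariate the change was 0.88 (adjusted p=0.0385), where 5.4% of all genes were called. It was called in 7 of 7 fits that each left out 1 library (0.71 to 0.93). The call was lost when the suffix was taken from the file names, which differ from the titles for library 697-4 (0.89, adjusted p=0.513), a fit in which 0 of 14130 genes were called. Against WT the log2 fold change was 0.52 (s.e. 0.17, 95% interval 0.12 to 0.91, edgeR adjusted p=0.0699). DESeq2 gave 0.55 (adjusted p=0.0125) and limma-voom 0.58 (adjusted p=0.041). These comparisons share the Sp3-/- libraries. In libraries without a suffix, Klf2 was 2.45 in WT 468-4 and 2.15 in Sp3+/- 697-4, close to the other libraries of their genotypes. Both libraries had the highest macrophage sums of their groups (2920 and 2800 CPM). Within Sp3-/-, the endothelial sums had the same order as Klf2 (147 CPM in 697-2, 126 in 685-1 and 120 in 697-5). The macrophage, mesothelial and epithelial sums had other orders. In the other groups the endothelial order differed from that of Klf2. WT 468-4 had the highest endothelial sum of its group (123 CPM) but not the highest Klf2. Sp3+/- 685-7 had the lowest sum of its group (52.2 CPM) and the highest Klf2 (2.26). The part of macrophage, mesothelial, endothelial or epithelial RNA in the Klf2 difference was not tested.

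Klf4, which opposes proliferation in many cells and promotes it in others, ranged from 5.84 to 6.41 log2 CPM in WT, 5.92 to 6.16 in Sp3+/- and 5.76 to 6.39 in Sp3-/- libraries. Its log2 fold change in Sp3-/- against WT was -0.18 (95% interval -0.65 to 0.30). Klf6 had 7.89, 7.35, 7.61 and 7.51 log2 CPM in WT libraries 468-4, 685-2, 697-1 and 697-3, and 7.64, 7.94 and 7.97 in Sp3-/- libraries 685-1, 697-2 and 697-5. Groups overlapped because WT 468-4 was as high as the Sp3-/- libraries, and Sp3+/- 697-4 (7.79) was likewise the highest of its group (7.15 to 7.79). The Klf6 difference from WT was 0.25 (95% interval -0.10 to 0.61) and became -0.02 with the suffix in the fit. Its difference from Sp3+/- was 0.37 (edgeR adjusted p=0.123) and became 0.04. Within WT and within Sp3+/-, the library highest in Klf6 was the one with the highest macrophage sum, and Sp3-/- 685-1 had both the lowest Klf6 and the lowest macrophage sum of its group (2840 CPM, against 10600 and 9590). The lung mesenchyme sum was lowest of its group in WT 468-4 (13100 CPM) and Sp3+/- 697-4 (14900), and highest of its group in Sp3-/- 685-1 (19100). The part of macrophage or mesenchymal RNA in Klf6 was not tested.

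Klf5, a factor of proliferating epithelium and smooth muscle, varied most among the Sp3-/- libraries, with 3.66 in 685-1, 2.91 in 697-2 and 1.88 in 697-5. The WT values were 1.74, 2.76, 2.58 and 2.93, with 468-4 lowest. The log2 fold change in Sp3-/- against WT was 0.44, with a 95% interval from -0.57 to 1.44 that spans changes in both directions. Without Sp3-/- library 685-1 it was -0.07. Klf7, best known from neurons and adipocyte precursors, had 2.81, 3.20, 3.57 and 3.73 in WT, and 3.03, 2.82 and 2.22 in Sp3-/- libraries. Only WT 468-4 lay within the Sp3-/- range. The log2 fold change of Klf7 was -0.65 (s.e. 0.28, 95% interval -1.30 to 0.00, edgeR adjusted p=0.135). It passed without WT 468-4 (-0.80, adjusted p=0.0468) and was -0.32 with the suffix in the fit.

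**Figure D2:**
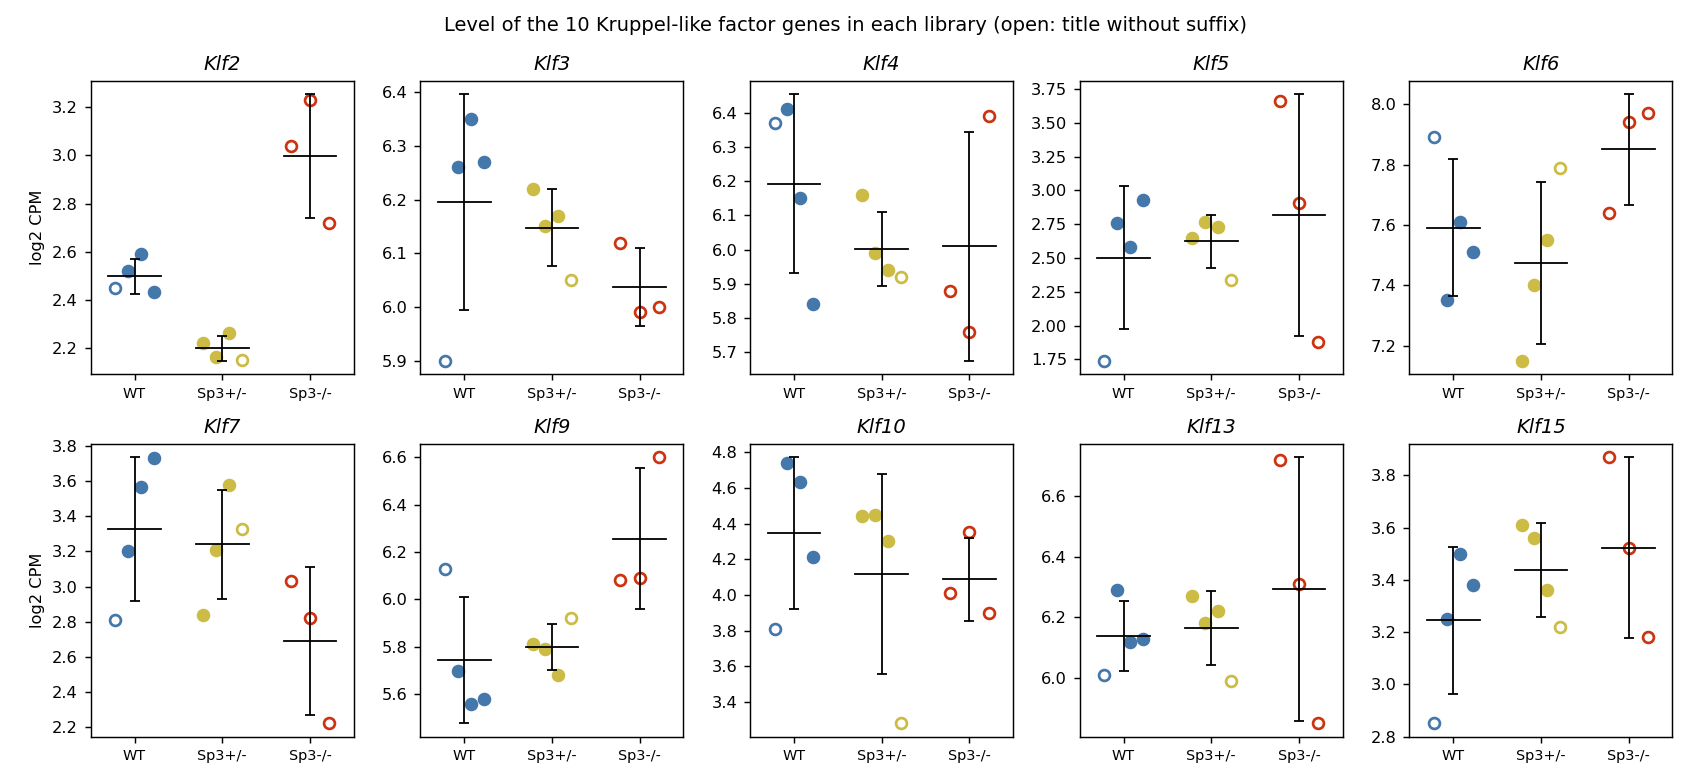
Log2 CPM (y axis, a separate range for each gene) of the 10 members in each library, by genotype, with the mean and s.d. as black lines and open circles for libraries whose title has no suffix. Klf2 is the member whose 3 groups do not overlap, and the open WT and Sp3+/- circles lie near the Sp3-/- circles for Klf6 and Klf9.

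Among the repressors that bind Sin3A, Klf9, a target of glucocorticoid and thyroid hormone receptors, had 6.13 log2 CPM in WT 468-4 and 5.70, 5.56 and 5.58 in the other WT libraries. It had 5.81, 5.79, 5.68 and 5.92 in Sp3+/- libraries, with 697-4 highest. It had 6.08, 6.09 and 6.60 in Sp3-/- libraries. All Sp3-/- values lay above all Sp3+/- values, and above all WT values except 468-4. The log2 fold change was 0.51 against WT (s.e. 0.20, 95% interval 0.06 to 0.97, edgeR adjusted p=0.101). It was 0.48 against Sp3+/- (95% interval 0.10 to 0.86, adjusted p=0.0621). With the suffix in the fit both were 0.24. Against WT, Klf9 passed without WT 468-4 (0.66, adjusted p=0.0301) and in the fit of all 11 libraries (0.51, adjusted p=0.0483). The no-overlap count of members, 1 (Klf2) against WT and 2 (Klf2 and Klf9) against Sp3+/-, stands beside 31.3% and 34% of all genes tested. The 5 libraries highest in Klf9 were the 5 without a suffix, which also had the highest macrophage sums (2800 to 10600 CPM). They had the lowest lung mesenchyme sums too (7100 to 19100 CPM, against 20800 or more in the others). The part of macrophage or mesenchymal RNA in the Klf9 difference was not tested.

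Klf10, a TGF-β inducible early gene, was lowest in the WT and Sp3+/- libraries without a suffix. The WT values were 3.81 in 468-4 and 4.74, 4.63 and 4.21 in the others, and the Sp3+/- values were 3.28 in 697-4 and 4.44, 4.45 and 4.30 in the others. The Sp3-/- values of 4.01, 4.35 and 3.90 lay above both of the carrier libraries without a suffix. The log2 fold change in Sp3-/- against WT was -0.29 (95% interval -0.86 to 0.27) and turned to 0.40 with the suffix in the fit (adjusted p=0.233). Against Sp3+/- it was -0.09 and turned to 0.68 (adjusted p=0.0923). Neither direction passed the test.

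Klf13, a regulator of chemokine expression in lymphocytes, had 6.01 to 6.29 log2 CPM in WT libraries, and 6.72, 6.31 and 5.85 in Sp3-/- libraries 685-1, 697-2 and 697-5. Its log2 fold change in Sp3-/- against WT was 0.19 (95% interval -0.23 to 0.61). Klf15, which carries glucocorticoid and fasting signals in muscle, liver and fat, had 2.85, 3.25, 3.50 and 3.38 in WT, and 3.87, 3.52 and 3.18 in the same 3 Sp3-/- libraries. Its change was 0.29 (95% interval -0.21 to 0.79), or 0.59 with the suffix in the fit (adjusted p=0.118). Klf5, Klf13 and Klf15 shared the order of the Sp3-/- libraries, each highest in 685-1 and lowest in 697-5, the smallest library. The mesothelial sums (5660, 2980 and 2030 CPM) and the epithelial sums (154, 81.1 and 46.8 CPM) of 685-1, 697-2 and 697-5 had the same order. So did the lung mesenchyme sums of these libraries (19100, 13400 and 7100 CPM). Krt18 and Krt8 were the most abundant of the epithelial markers. The part of the cells that express these markers in the 3 genes was not tested. Klf3, the member that binds CtBP and a brake on erythroid and adipocyte genes, had 5.90 in WT 468-4, 6.26, 6.35 and 6.27 in the other WT libraries and 5.99 to 6.12 in Sp3-/- libraries. Its change was -0.17 (95% interval -0.46 to 0.11), and it was -0.26 (adjusted p=0.0498) without WT 468-4 and 0.01 with the suffix in the fit.

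**Figure D3:**
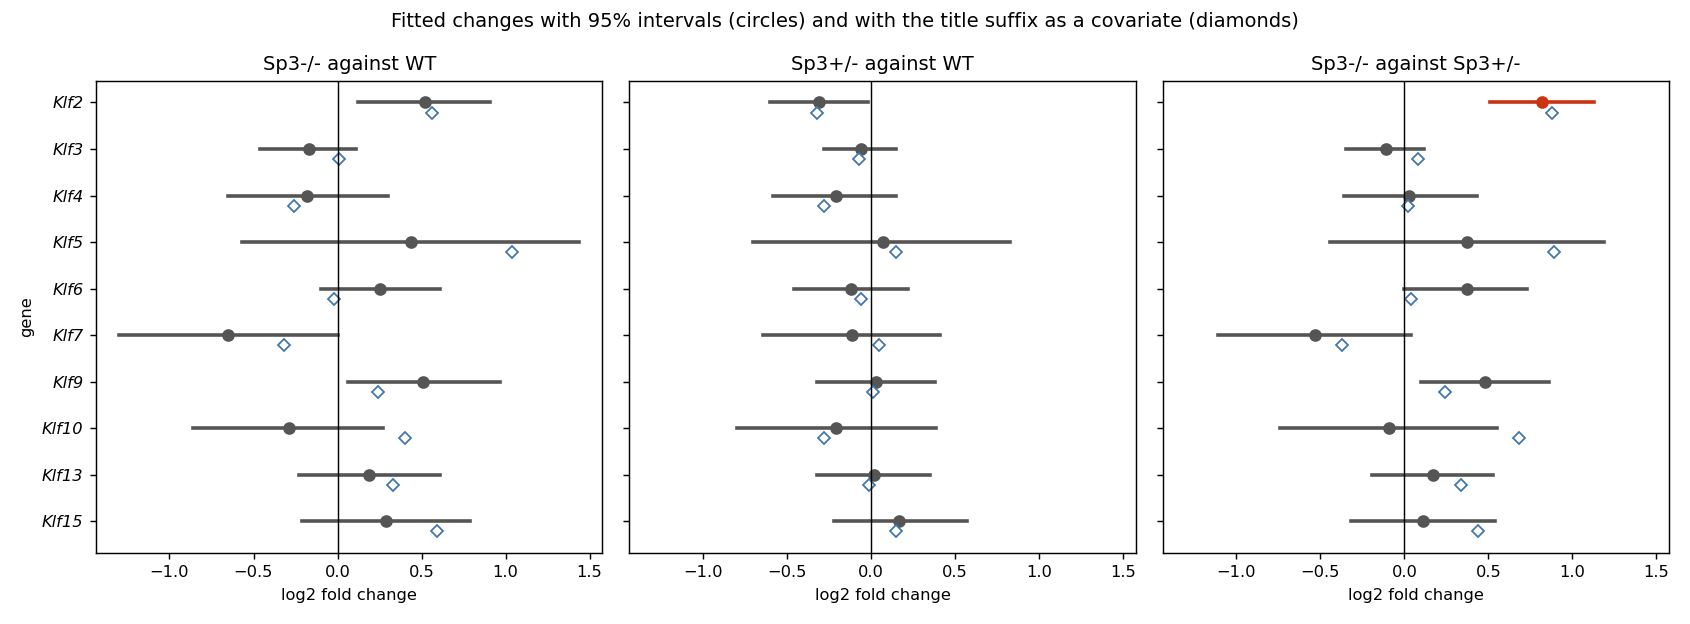
Log2 fold changes (x axis) of the 10 members in 3 comparisons, with 95% intervals from edgeR (circles and lines, red where the adjusted p was below 0.05) and the estimate with the title suffix as a covariate (open diamonds). Klf2 in Sp3-/- against Sp3+/- cells (0.82) is the 1 red interval, and the diamonds of Klf10 lie on the other side of 0 from its circles in both comparisons with Sp3-/- cells.

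Loss of a single Sp3 allele left no member past the test. In Sp3+/- against WT cells edgeR called 0 of 10 members and 0% of all 14130 genes, and DESeq2 and limma-voom also called 0. Klf2 was the 1 member with an unadjusted p below 0.05 (edgeR adjusted p=1), beside 1.74% of all genes. Its log2 fold change was -0.31 (s.e. 0.13, 95% interval -0.60 to -0.02), and its libraries did not overlap, which held for 1.39% of all genes. The other 9 log2 fold changes lay between -0.21 and 0.17. The intervals reached from -0.70 to 0.83 for Klf5 and from -0.28 to 0.15 for Klf3, so the precision differed between members.

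Of the 7 family genes outside the 10 members, Klf1, Klf14 and Klf17 had too few reads to be tested. All 4 that were tested had negative log2 fold changes in Sp3-/- against WT, and 3 passed the test (Klf8, Klf11 and Klf12). For all 4 the Sp3-/- and WT libraries did not overlap, which held for 31.3% of all genes tested. Over all 14 family genes tested the called share was 21.4%, near the 18.5% of all genes, and a difference between the members and the rest of the family was not tested.

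Klf8, an X-linked repressor that binds CtBP and is linked to cell cycle progression (chromosome X, 153225339 to 153398925), had 1.36 log2 CPM in WT 468-4 and 2.52, 2.59 and 2.46 in the other WT libraries. It had 2.18 to 2.33 in Sp3+/- libraries and 0.61, 0.46 and 0.65 in Sp3-/- libraries. Each Sp3-/- library lay below all others. Against WT the log2 fold change was -1.79 (s.e. 0.35, edgeR adjusted p=0.0193). With the suffix in the fit the change was -1.28 (adjusted p=0.0376). Against Sp3+/- it was -1.73 (adjusted p=0.00436), or -1.31 with the suffix (adjusted p=0.0399), and it was called in 7 of 7 fits that left out 1 library. Against WT it was called in 3 of 7 such fits and lost the call without WT 685-2 (adjusted p=0.0531), 697-1 (0.0556) or 697-3 (0.0567), or without Sp3-/- 697-2 (0.0823), and over the 7 fits the change ranged from -2.01 to -1.67. With the suffix of the file names it was -0.83 (adjusted p=0.130).

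Klf12, a CtBP-binding repressor first described at the AP-2α promoter, had 3.04 in WT 468-4 and 4.35, 4.82 and 4.38 in the other WT libraries, 2.85 in Sp3+/- 697-4 and 4.04 to 4.35 in the other Sp3+/- libraries. It had 2.56, 2.05 and -0.21 in Sp3-/- libraries, the last from 8 reads. Klf12 fell by 2.38 log2 in Sp3-/- against WT (s.e. 0.62, edgeR adjusted p=0.039). It was called in 2 of 7 fits that left out 1 library, those without WT 468-4 or without Sp3-/- 685-1, and was -1.11 with the suffix in the fit (adjusted p=0.184). Klf11, a Sin3A-binding repressor that also acts in TGF-β signaling, was 3.93 to 4.59 in WT and 3.35 to 3.60 in Sp3-/- libraries. Klf11 fell by 0.73 log2 (s.e. 0.19, edgeR adjusted p=0.039). It was called in 1 of 7 such fits, that without WT 468-4, and was -0.50 with the suffix (adjusted p=0.146). Klf16, another family member, was -0.36 (adjusted p=0.0799). The lung mesenchyme markers summed to 13100 to 22100 CPM in WT, 14900 to 22300 in Sp3+/- and 7100 to 19100 in Sp3-/- libraries. In WT the sum was lowest in 468-4 and in Sp3+/- in 697-4, the libraries of their groups lowest in Klf8 and Klf12. For Klf8 in Sp3+/- the gap was small (2.18 in 697-4 and 2.20 in 685-5). Within Sp3-/-, 697-5 had the lowest sum (7100 CPM), the lowest Klf12 (-0.21) and the highest Klf8 (0.65). The part of mesenchymal RNA in these differences was not tested.

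**Figure D4:**
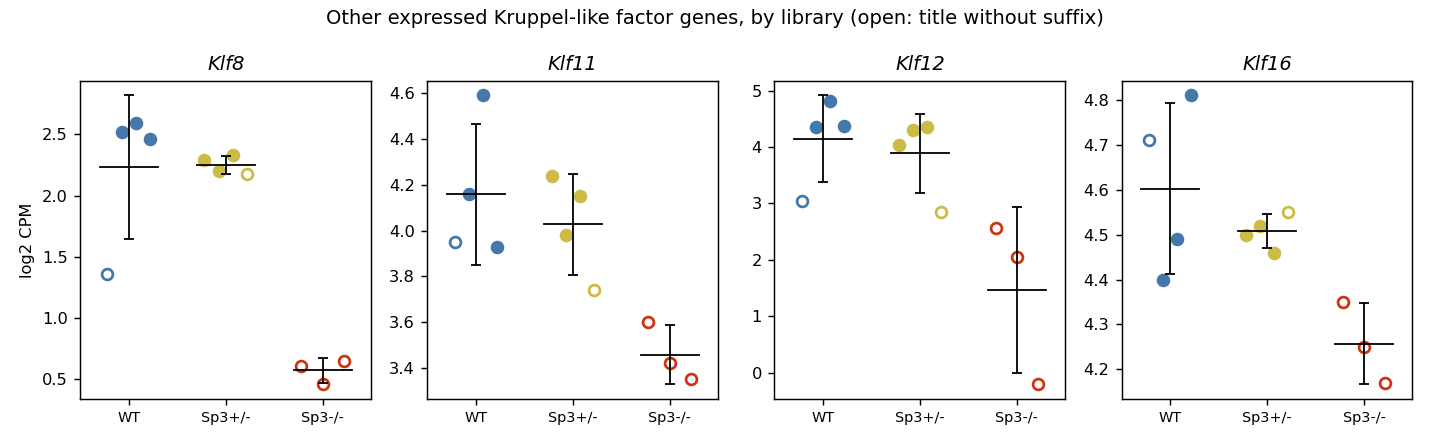
Log2 CPM (y axis, a separate range for each gene) of the 4 other family genes that were tested, by genotype and library, with mean and s.d. as black lines and open circles for libraries without a title suffix. The Sp3-/- libraries of Klf8 (0.46 to 0.65) lie below all others, while WT 468-4 (3.04) and Sp3+/- 697-4 (2.85) approach the Sp3-/- libraries for Klf12.

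The repressor and activator groups above were formed after the values were seen. In Sp3-/- against WT, 18.5% of all genes passed (9.77% lower). None of the 5 activators tested passed, 2 of the 3 CtBP-binding genes did, both lower, and 1 of the 5 Sin3A-binding genes (20%) did, also lower. A difference between these small groups was not tested. In the related Sp family, 6 genes were tested and Sp3 alone, the gene that defines the genotypes, was called (16.7%). Its change was -2.30 log2 (edgeR adjusted p=0.00611).

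Of the genes for 16 cofactors and ubiquitin ligases of the family, 2 rose, 1 fell and 13 did not pass in Sp3-/- against WT, with a median of -0.01. The share called, 18.8%, was near the 18.5% of all genes. Wwp1, a ubiquitin ligase that targets Klf2 and Klf5 protein, rose by 1.30 log2 (edgeR adjusted p=0.0277), or 0.74 with the suffix in the fit (adjusted p=0.0724). Wdr5, a chromatin cofactor of the H3K4 methyltransferases, rose by 0.46 (adjusted p=0.0195), or 0.47 with the suffix (adjusted p=0.0287). Hdac2, a deacetylase of the Sin3A complex, fell by 0.33 (adjusted p=0.0425), or -0.19 with the suffix (adjusted p=0.194). The ERK5 and MEF2 pathway drives Klf2 and Klf4 in endothelium, and its list of 7 genes includes the deacetylases Hdac5 and Hdac7. Of these 7 genes, 2 rose and 1 fell (42.9%, against 18.5% of all genes). With the suffix in the fit 1 was called (9.41% of all genes). Mef2a rose by 0.49 (edgeR adjusted p=0.0378), or 0.33 with the suffix (adjusted p=0.130). Hdac5, a class II deacetylase that restrains MEF2, rose by 0.53 (adjusted p=0.0213), or 0.63 with the suffix (adjusted p=0.0216). Hdac7, of the same class, fell by 0.99 (adjusted p=0.0201), or -0.57 with the suffix (adjusted p=0.0525).

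Of 19 immediate early genes, which serum induces together with Klf2, Klf4, Klf6 and Klf10, 2 rose and 1 fell in Sp3-/- against WT, with a median of 0.23. The share called, 15.8%, was below that of all genes (18.5%). Fos rose by 1.11 (edgeR adjusted p=0.0378) and Zfp36, an mRNA decay factor, by 0.52 (adjusted p=0.0354), whereas Myc fell by 0.64 (adjusted p=0.0317). With the suffix in the fit the median was 0.02, Fos (0.71, adjusted p=0.110) and Zfp36 (0.36, adjusted p=0.179) were no longer called, and Myc was (-0.98, adjusted p=0.0103). Of 13 glucocorticoid and clock output genes tested, the setting in which Klf9 and Klf15 are best known, 1 rose, the clock repressor Bhlhe40 (0.84, adjusted p=0.0255), and 12 did not pass. The share called was 7.69%, against 18.5% of all genes.

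Of 11 adipogenic transcription factors, among which Klf2, Klf3, Klf5, Klf9 and Klf15 act, 3 rose and 2 fell (45.5%, against 18.5% of all genes). With the suffix in the fit 1 was called higher and 1 lower. Cebpa, a master factor of adipocyte differentiation that macrophages also express, rose by 2.52 (edgeR adjusted p=0.0491), or 1.31 with the suffix in the fit (adjusted p=0.0948). The early B cell factors Ebf2 and Ebf1, which act in adipocyte precursors, fell by 2.48 (adjusted p=0.0209) and 1.86 (adjusted p=0.0219). With the suffix Ebf2 was no longer called (-2.09, adjusted p=0.150) and Ebf1 was (-1.80, adjusted p=0.0344). Among 15 genes described as targets of the family, 0 rose, 3 fell and 12 did not pass in Sp3-/- against WT. These were Slc2a4, the insulin-responsive glucose transporter (-3.22, adjusted p=0.0287), Eng, a TGF-β coreceptor (-1.81, adjusted p=0.00611), and Tagln, a smooth muscle actin-binding protein (-1.68, adjusted p=0.0228). The share called, 20%, was near the 18.5% of all genes. With the suffix in the fit Slc2a4 was no longer called (-1.67, adjusted p=0.0884), whereas Eng (-1.85, adjusted p=0.00343) and Tagln (-1.88, adjusted p=0.0268) were. In Sp3-/- against Sp3+/-, 4 of the 15 targets rose and 4 fell (53.3%, against 25.5% of all genes). With the suffix in that fit 0 rose and 2 fell, where 5.4% of all genes were called.

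The genes whose levels followed 4 members most closely were found among 11203 genes over all 11 libraries, by Pearson's r of log2 CPM. These were Ddx47 (r=0.919), Fbxw4 (0.915) and Zfp169 (0.910) for Klf2, and Rgs1 (0.960), Actr2 (0.960) and Tmem81 (0.958) for Klf6. They were Ikbkap (0.967), Spry1 (0.958) and Zmym1 (0.954) for Klf7, and Kctd2 (0.979), Snhg11 (0.976) and Prr13 (0.975) for Klf9. All 4 lists rest on the same 11 libraries and their 3 genotypes, and the highest of so many correlations is high in any data.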

How the data were processed

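RNA-seq was performed by the authors on primary mesenchymal cells of embryonic day 15 mouse lungs (4 WT, 4 Sp3+/- and 3 Sp3-/- libraries, 50 bp single end reads from TruSeq libraries). Per the labels, the submitters' processing notes name FastQC 0.10.1, STAR 2.4.5a, HTSeq and mm10. The annotation and strand setting are not given in the sources used here. The authors deposited raw counts per gene symbol, without normalization. Tallies of reads assigned to no gene (38.4% to 40.9% of each library) were left out. Library totals were 9849111 to 59297495, and counting error is largest for genes of few reads.

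Genes above 1 CPM in 1 or more libraries were tested with edgeR 4.0.16 (TMM, robust glmQLFit, glmQLFTest) in R 4.3.3, called at a Benjamini-Hochberg adjusted p below 0.05 over all genes. WT against Sp3-/- used 7 libraries, and comparisons with Sp3+/- all 11. Log2 CPM used a prior count of 2. Standard errors (s.e.) are those of the fitted log2 fold changes, and they and the intervals follow from the test statistic. Lengths came from GENCODE on GRCm39, promoters from RefSeq on GRCm38.p6. Alternatives included DESeq2 1.42.0, limma-voom 3.58.1, other filters and scalings, the suffix as a covariate and each library left out. The pipeline was tested on simulated data. All members were named, with at most 3 called genes per list by size of change and the 3 genes most like each of the 4 members of smallest p. Members and lists were chosen with earlier results of these data known.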

Additional observations from a re-analysis of the deposited data

Results flagged for a closer look

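Klf10 in Sp3+/- library 697-4 had 3.28 log2 CPM, far below the 4.30 to 4.45 of the other 3 Sp3+/- libraries, by Dixon's test of the gap between the lowest value and its neighbour. It was the 1 flag among 20 groups of 4 libraries tested over the members, and chance flags about 1 in 20. This library is the Sp3+/- library whose title has no suffix, and WT 468-4, the WT library without one, was also the lowest of its group (3.81). Groups of 3 libraries were not tested.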

How the results depend on the processing

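In Sp3-/- against WT, 0 members were called under library size alone, upper quartile, every gene with a count, filterByExpr, either suffix covariate and the libraries without a suffix. The count was 1 (Klf2 each) by DESeq2 (4297 of 13992 genes called), limma-voom (2493 of 14025) and limma-voom with a consensus correlation (3033 of 14025). It was 2 with the first title number as a replicate block (Klf6 and Klf9, beside 4031 of 14025 genes). The fit of all libraries also gave 2 (3977 of 14130 genes). Without 1 library the counts were 0 to 3, the 3 (Klf3, Klf7 and Klf9) without WT replicate 1 (468-4), where 4179 of 13970 genes were called. Without both Sp3-carrying libraries that lack a suffix, chosen after seeing the data, 3 were called, again beside 4179 of 13970 genes. In Sp3-/- against Sp3+/- the count was 2 by DESeq2 (Klf2 and Klf9, beside 4633 of 14092 genes) and 0 with the file name suffix (0 of 14130). Without 1 library it was 1 to 2. Klf6 joined without Sp3+/- 697-4 (0.49, edgeR adjusted p=0.0468), where 3706 of 14114 genes were called. It was 3 without both such libraries (Klf2, Klf6 and Klf9, beside 4495 of 14065 genes). Sp3+/- against WT gave 0 members under each of the 19 alternatives run.

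Directions turned mostly for small changes that had not been called. In Sp3-/- against WT, Klf3, Klf6 and Klf10 became 0.01, -0.02 and 0.40 with the title suffix, 0.13, -0.04 and 0.28 with the file name suffix, and 0.12, -0.05 and 0.27 in libraries without a suffix only. Leaving out 1 library gave -0.07 to 0.76 for Klf5 and -0.05 to 0.37 for Klf13. In Sp3+/- against WT, Klf5 and Klf13 became -0.03 and -0.06 with the number block and -0.03 and -0.01 with the file name suffix. Klf7 and Klf13 became 0.05 and -0.01 with the title suffix, and Klf5 -0.04 without both libraries lacking a suffix. Leaving out 1 library gave -0.13 to 0.21 for Klf5, -0.26 to 0.03 for Klf7, -0.03 to 0.18 for Klf9 and -0.02 to 0.08 for Klf13. In Sp3-/- against Sp3+/-, Klf4 became -0.03 by limma-voom with and without the consensus correlation, -0.04 with the upper quartile, -0.13 with the file name suffix and -0.01 without both libraries. Klf3 and Klf10 became 0.08 and 0.68 with the title suffix and 0.29 and 0.47 with the file name suffix, which also moved Klf7 to 0.07. Leaving out 1 library gave -0.20 to 0.17 for Klf4, -0.13 to 0.69 for Klf5, -0.30 to 0.01 for Klf10, -0.07 to 0.34 for Klf13 and -0.08 to 0.24 for Klf15. The causes were not tested.

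Whether the first title numbers (468, 685 and 697) pair the libraries could not be settled. Deviations of 14 pairs with the same number correlated at -0.62 to 0.34 (median 0.10), and those of 26 other pairs at -0.52 to 0.71 (median -0.04). The highest, 0.71, was between 468-4 and 697-4, which both lack a title suffix, so other differences between libraries can hide a pairing. Few reads limit Klf2, Klf5 and Klf7, with as few as 36 for Klf5 in Sp3-/- 697-5.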
